A study of Mus musculus with 6 samples.

Results

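The genes described here make, bind or break down the intracellular messengers cAMP and cGMP, or shorten the G protein signals that govern their synthesis. They were taken by name from the deposited gene tables: adenylyl cyclases (Adcy followed by a number), phosphodiesterases (Pde with a number and the letter a to d), guanylyl cyclases (Gucy1 and Gucy2, with the letters a to d), subunits of protein kinase A (Prkac and Prkar genes), the cGMP-dependent kinases Prkg1 and Prkg2, and regulators of G protein signalling (Rgs with a number). The rule found 68 of the 49585 genes listed, under 67 symbols, since Pde2a stands under 2 gene identifiers. They comprised 10 Adcy, 23 Pde, 6 Gucy, 6 Prka, 2 Prkg and 21 Rgs genes. RNA had been sequenced from mGB2, a murine glioblastoma line labelled as glioblastoma stem cells, in 3 Bcat1-KO libraries and 3 control libraries (marked NT in the design text). Bcat1 encodes the cytosolic transaminase of branched-chain amino acids. All 6 cultures were untreated and had grown attached to matrix-coated plates to confluency in DMEM:F12 with N2, B27, EGF and FGF, so that growth factors were present in both genotypes. The labels do not say how the knockout was made, whether it is a single clone, or whether replicates were separate cultures, and the p-values therefore measure only the spread between these samples, which may be technical.

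Adenylyl cyclases form cAMP from ATP when the stimulatory G protein Gs is activated by a receptor, and several are also set by calcium, by inhibitory Gi proteins or by G protein beta-gamma subunits. cAMP releases the catalytic subunits of protein kinase A from its regulatory subunits, while cGMP, formed by soluble cyclases that sense nitric oxide and by receptor cyclases that bind peptides, activates the Prkg kinases. Phosphodiesterases hydrolyse both messengers with different preferences, and Rgs proteins speed the hydrolysis of GTP by Gi, Go and Gq alpha subunits. In glial and neural progenitor cells, cAMP and Gi-coupled receptors are known to affect proliferation and differentiation.

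The libraries held 29543157 to 37800648 strand-matched counts, so that 3 counts corresponded to 0.0794 to 0.102 CPM (counts scaled to library size) in 1 library. Bcat1 itself fell from 223 ± 9.26 CPM in the control to 168 ± 11.5 CPM in the knockout (mean ± SD, n = 3 each), with a log2 fold change of -0.41 (adjusted p = 0.000355, edgeR), and its mRNA was therefore still present in the libraries labelled Bcat1-KO. All 10 markers of glioblastoma stem cells and neural progenitors passed the filter on low counts. In the knockout 7 were higher and 0 lower, beside 32.0% and 30.3% of all genes tested. Sox2 stood at 336 ± 44.9 and 136 ± 4.40 CPM and Olig2 at 563 ± 59.5 and 268 ± 11.0 CPM in knockout and control. Prom1 had 92 counts over the knockout libraries and 0 over the control libraries, so it passed the filter only through the knockout. Nes, Msi1 and Egfr did not pass, with log2 fold changes of -0.10, -0.04 and -0.23 (adjusted p = 0.275, 0.637 and 0.0685, edgeR). Microglial and other leukocyte markers summed to 2.62 to 4.32 CPM and endothelial markers to 0.831 to 1.33 CPM in any library. Knockout replicate 1 differed from the other knockout libraries more than these did from each other, with a chi-square per gene of 31.1 and 32.5 against 12.4, and control replicate 1 stood apart likewise, at 12.5 and 11.7 against 3.91.

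After a filter on low counts, 41 of the 68 genes could be tested, and 27 could not. Of those tested, 17 rose and 11 fell in the knockout (quasi-likelihood test of edgeR, with p-values adjusted over 14020 genes by the Benjamini-Hochberg method and a threshold of 0.05), and 13 did not pass. The 28 calls were 68.3% of the tested members, beside 62.3% of all genes tested, 32.0% higher and 30.3% lower, so the share of calls was near the background. Changes of at least 2-fold were called for 18 members, or 43.9%, beside 19.2% of all genes. The median absolute log2 fold change was 0.65 among tested members and 0.38 among all genes tested. Knockout and control libraries did not overlap for 30 of the 41 tested members, beside 67.7% of all genes tested. Without knockout replicate 1, 17 members were higher and 14 lower, and without control replicate 1, 17 and 12. The changes ran in both directions within the Adcy, Pde, Prka and Rgs families, so that the mixture of isoforms differed between the genotypes. Of the Gucy and Prkg genes tested, Gucy1b3, Gucy1b2 and Prkg1, all were higher. Gucy1b2, with 73 counts over the knockout libraries and 7 over the control, passed the filter only through the knockout, so its direction adds nothing. Gucy1a2, untested, had 2 and 27 counts in knockout and control.

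**Figure D1:**
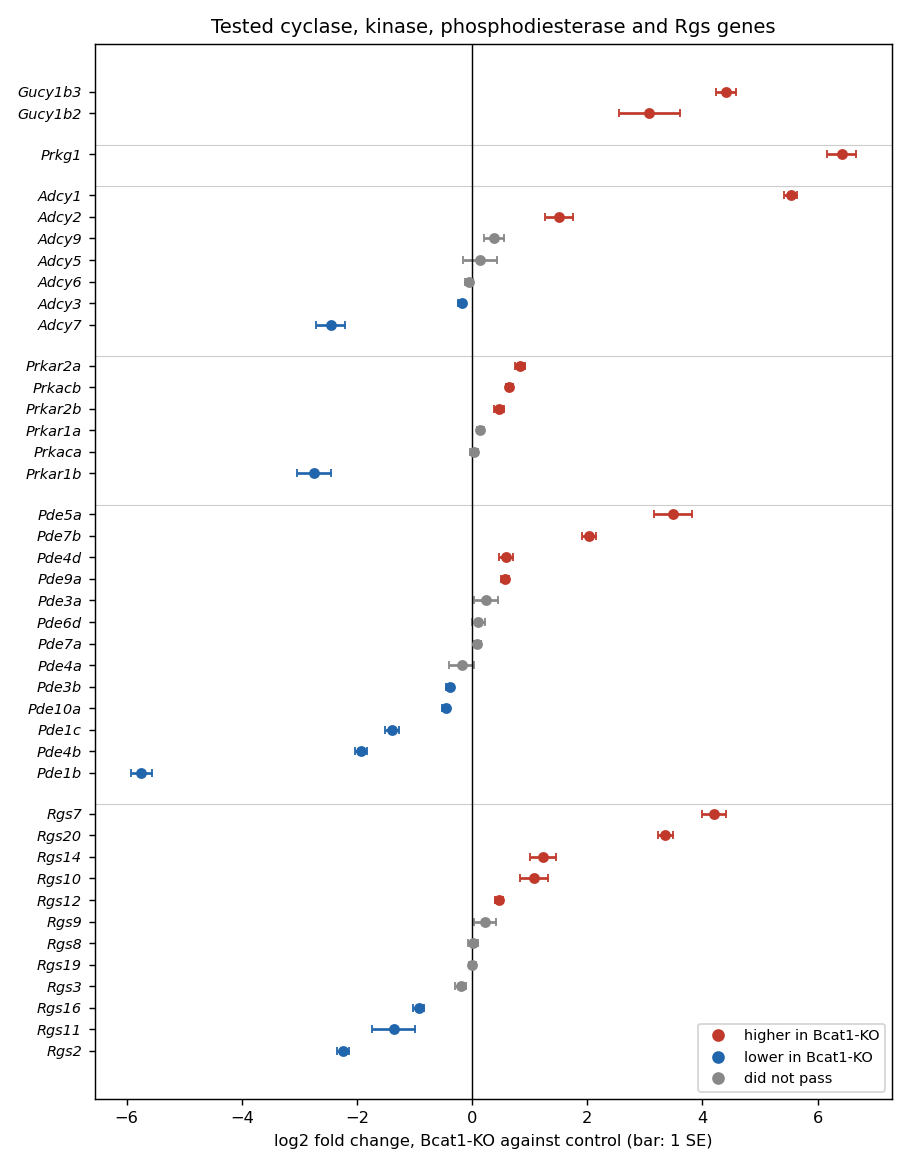
Log2 fold change of knockout against control for the 41 tested members, grouped by family and ordered within it, with bars of 1 SE. Red points passed as higher, blue points as lower and grey points did not pass; Prkg1, Adcy1 and Gucy1b3 lie farthest to the right and Pde1b farthest to the left.

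The cGMP arm held the largest rise. Prkg1, the type I cGMP-dependent protein kinase (ENSMUSG00000052920.14, chromosome 19 from 30567551 to 31765033, mm10, minus strand), stood at 0.509, 0.392 and 0.551 CPM in the 3 control libraries and at 30.1, 43.3 and 51.1 CPM in the knockout. Every knockout library lay far above every control library, and knockout replicate 1 was the lowest of its group. The ratio of the group means was 85.8-fold (edgeR log2 fold change 6.42, SE 0.25, adjusted p = 9.90e-10). Prkg2, the membrane-bound type II kinase, had 16 counts over the knockout libraries and 2 over the control libraries and was not tested.

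Gucy1b3, which encodes the haem-binding beta 1 subunit of soluble guanylyl cyclase (ENSMUSG00000028005.13, chromosome 3 from 82032006 to 82074689, minus strand), had 1.91, 1.90 and 2.34 CPM in the control and 54.7, 36.8 and 39.4 CPM in the knockout. The groups did not overlap, and knockout replicate 1 was the highest library. It rose 21.3-fold (edgeR log2 fold change 4.41, SE 0.18, adjusted p = 1.14e-09). Soluble guanylyl cyclase is active as a pair of an alpha and a beta subunit, and both alpha genes of the rule were close to 0. Gucy1a3, the alpha 1 gene, had 8, 5 and 7 counts in knockout libraries and 0, 0 and 3 in the control, and Gucy1a2, the alpha 2 gene, had 2, 0 and 0 against 7, 11 and 9. Gucy1a2 passed as lower in alternatives that tested it, among them DESeq2 (adjusted p = 0.00543). Per length, the alpha genes summed to 0.0940 ± 0.0335 TPM (the authors' level per exonic length of the gene) in the knockout, where the beta genes summed to 37.1 ± 7.45 TPM. The rise of the beta 1 transcript was thus not accompanied by a comparable level of alpha transcripts in any library. Gucy1b2, the beta 2 gene, rose from 0.0760 ± 0.0700 to 0.659 ± 0.130 CPM (edgeR log2 fold change 3.08, SE 0.53, adjusted p = 0.000335), on 7 counts over the whole control group. The receptor cyclase genes Gucy2c and Gucy2d had 1 and 0 counts over all 6 libraries.

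Both tested genes of the 5 for phosphodiesterases that hydrolyse only cGMP were higher, beside 32.0% of all genes tested. Pde5a, with 256 counts over the knockout libraries and 19 over the control, passed the filter only through the knockout. Its direction was thus largely fixed by the filter, and the count gives no support for a shared rise. Pde9a, a high-affinity cGMP enzyme and per length the most abundant phosphodiesterase transcript, had 47.1, 48.2 and 44.3 CPM in the control and 74.9, 66.2 and 65.6 CPM in the knockout, without overlap (edgeR log2 fold change 0.57, SE 0.07, adjusted p = 3.52e-05). Pde5a, the cGMP enzyme that sildenafil inhibits, went from 0.350, 0.151 and 0.103 CPM to 2.63, 2.05 and 2.26 CPM, an 11.5-fold ratio at a low level (edgeR log2 fold change 3.49, SE 0.33, adjusted p = 2.60e-06). The photoreceptor genes Pde6a, Pde6b and Pde6c had 2, 0 and 1 counts over all libraries. Pde6d, whose product carries prenylated proteins and is not a catalytic subunit, stood at 29.9 ± 5.01 CPM in knockout libraries and 27.7 ± 0.768 CPM in the control (log2 fold change 0.11, adjusted p = 0.39, edgeR).

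Other genes of the nitric oxide and natriuretic branch, from a list of 10 synthases, ligands and regulators, were mostly below the filter. Of the 3 tested, 2 were called, both higher. That is 66.7%, near the 62.3% called and 32.0% higher among all genes tested, given so few genes. Ddah1, which degrades inhibitors of nitric oxide synthase, rose from 70.5 ± 3.09 to 224 ± 4.32 CPM, and its relative Ddah2 rose from 92.8 ± 5.08 to 124 ± 29.8 CPM. The Ddah2 call was lost without control replicate 1 (adjusted p = 0.0876, edgeR), and its log2 fold change went from 0.41 to 0.18 without knockout replicate 1. Nitric oxide synthase transcripts were scarce, with Nos3 at 0.391 ± 0.150 and 0.595 ± 0.0682 CPM in knockout and control (adjusted p = 0.123, edgeR) and Nos1 and Nos2 at 24 and 15 counts in all.

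Adenylyl cyclase transcripts shifted in their make-up. Adcy1, a calcium- and calmodulin-stimulated cyclase known from neurons (ENSMUSG00000020431.5, chromosome 11 from 7063489 to 7178506, plus strand), had 2.29, 2.38 and 2.17 CPM in the control and 115, 94.3 and 108 CPM in the knockout. The control libraries agreed closely and every knockout library was higher, a 46.4-fold ratio (edgeR log2 fold change 5.53, SE 0.11, adjusted p = 7.03e-12). Adcy6, a calcium-inhibited cyclase, was the most abundant in both genotypes at 148, 131 and 134 CPM in the control and 138, 129 and 130.3 CPM in the knockout, and the groups overlapped (edgeR log2 fold change -0.06, SE 0.07, adjusted p = 0.487). On the TPM scale Adcy1 made up 0.598% ± 0.0396 of the summed cyclase transcripts in the control and 22.5% ± 1.29 in the knockout, and Adcy6 75.2% ± 1.36 and 58.8% ± 1.19 (n = 3 each). The summed cyclase level was 96.2 ± 5.38 TPM in the control and 123 ± 3.63 TPM in the knockout.

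Among the other cyclases, Adcy2 and Adcy7, both of the class that G protein beta-gamma subunits stimulate, moved in opposite directions. Adcy2 rose from 0.697 ± 0.166 to 2.0 ± 0.266 CPM (edgeR log2 fold change 1.51, SE 0.24, adjusted p = 0.000166), and Adcy7 fell from 1.6 ± 0.0742 to 0.287 ± 0.0724 CPM (edgeR log2 fold change -2.46, SE 0.26, adjusted p = 6.79e-06). Adcy3, best known from olfactory cilia and primary cilia, had 37.6, 39.3 and 37.4 CPM in the control and 33.0, 33.3 and 34.4 CPM in the knockout. That small decrease passed (edgeR log2 fold change -0.18, SE 0.07, adjusted p = 0.0309) but did not pass without knockout replicate 2 or without control replicate 2 or 3 (adjusted p = 0.0625, 0.107 and 0.0607), nor with no filter on low counts (0.0698) or limma-trend on TPM (0.151). Adcy9 and Adcy5 stood at 5.20 ± 1.08 and 0.590 ± 0.157 CPM in knockout libraries against 3.99 ± 0.263 and 0.535 ± 0.0431 CPM in the control and did not pass (adjusted p = 0.0669 and 0.707, edgeR), although Adcy9 passed as higher without knockout replicate 2 (0.0263). Adcy4, Adcy8 and the soluble bicarbonate-sensing Adcy10 had 8, 5 and 11 counts over all libraries and were not tested.

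Promoter sequences are shown for 4 members: Adcy1, Prkg1 and Gucy1b3, the tested members with the highest log2 fold changes, and Rgs2, the most abundant of the members that fell by more than 2-fold. Each is the 250 bases before the RefSeq start (GRCm38.p6, the assembly of mm10), read 5′ to 3′ on the gene's strand, at chr11:7063183-7063432 (plus), chr19:31765034-31765283 (minus), chr3:82074712-82074961 (minus) and chr1:144004150-144004399 (minus). These RefSeq starts lay 56, 0, 22 and 12 bases from the gene ends in the deposited tables. Capitals mark TGACG on either strand, the core of the element that the cAMP-responsive factor CREB recognises.
Adcy1: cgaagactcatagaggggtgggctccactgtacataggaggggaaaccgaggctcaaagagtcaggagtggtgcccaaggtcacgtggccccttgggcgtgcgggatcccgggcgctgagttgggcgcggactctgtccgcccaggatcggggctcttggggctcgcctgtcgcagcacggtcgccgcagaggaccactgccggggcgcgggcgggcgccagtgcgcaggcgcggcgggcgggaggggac
Prkg1: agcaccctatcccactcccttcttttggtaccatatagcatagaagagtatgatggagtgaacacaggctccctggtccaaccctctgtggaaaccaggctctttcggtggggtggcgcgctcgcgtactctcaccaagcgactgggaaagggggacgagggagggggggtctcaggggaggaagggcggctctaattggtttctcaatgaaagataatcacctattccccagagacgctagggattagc
Gucy1b3: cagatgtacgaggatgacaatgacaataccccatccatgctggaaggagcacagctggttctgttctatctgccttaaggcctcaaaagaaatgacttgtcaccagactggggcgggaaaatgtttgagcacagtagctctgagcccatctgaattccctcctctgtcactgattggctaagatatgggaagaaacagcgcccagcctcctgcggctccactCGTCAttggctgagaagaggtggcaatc
Rgs2: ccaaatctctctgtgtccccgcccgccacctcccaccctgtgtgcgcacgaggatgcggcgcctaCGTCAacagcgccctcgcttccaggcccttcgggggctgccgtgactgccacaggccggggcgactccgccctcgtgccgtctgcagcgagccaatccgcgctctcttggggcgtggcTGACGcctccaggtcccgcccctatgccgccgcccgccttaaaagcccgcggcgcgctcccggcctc

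The 3 promoters of the strongly higher genes differed in composition. Adcy1 had 26 CG dinucleotides and 71.2% G and C, Prkg1 9 and 55.2%, and Gucy1b3 5 and 51.2%, beside medians of 6 and 52.4% over the 32851 RefSeq windows. The Rgs2 window held TGACG at 2 places and that of Gucy1b3 at 1, and the Adcy1 and Prkg1 windows held none. Whether these sites bear on the changes was not tested. Windows were found for 51 of the 67 symbols, and 19 of their 96 windows (19.8%) held TGACG, beside 17.8% of all windows. The full palindrome TGACGTCA, which contains TGACG on both strands, was in 1 of the 96 windows (Prkar1a) and in 1.55% of all windows. Which start these cells use was not measured, and Prkg1 had 2 RefSeq windows, of which the one at the gene's outer end is printed.

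**Figure D2:**
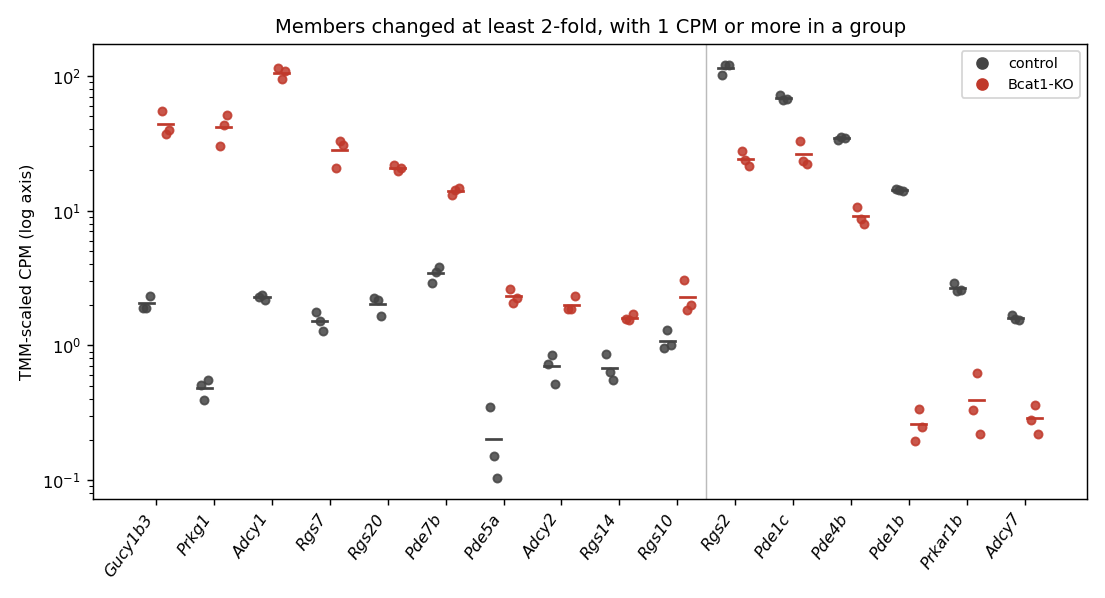
Level in each library, in CPM on a log axis, of the 16 members that passed with a change of at least 2-fold and a mean of at least 1 CPM in a group; short lines are group means, with genes higher in the knockout to the left of the grey line. The 3 knockout and 3 control points of each gene are separated, as in 67.7% of all genes tested, and these genes were chosen by the test. Prkg1 and Pde1b show the widest gaps.

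Of the phosphodiesterases that hydrolyse both messengers, 4 of 5 tested genes fell, beside 30.3% of all genes tested. Among them Pde1b, with 29 counts over the knockout libraries, passed the filter only through the control libraries. Pde1b, a calcium- and calmodulin-activated enzyme (ENSMUSG00000022489.5, chromosome 15 from 103503298 to 103530052, plus strand), had 14.4, 14.2 and 13.9 CPM in the control and 0.194, 0.338 and 0.248 CPM in the knockout. It was the most reduced of all tested members, 54.6-fold lower by group means (edgeR log2 fold change -5.74, SE 0.18, adjusted p = 1.83e-10). Its relative Pde1c had 72.2, 65.9 and 67.3 CPM in the control and 32.8, 23.3 and 22.3 CPM in the knockout, with knockout replicate 1 the nearest to the control (edgeR log2 fold change -1.39, SE 0.12, adjusted p = 1.54e-06). Pde10a, known from striatal neurons, fell from 87.9 ± 2.29 to 64.0 ± 1.22 CPM (adjusted p = 3.85e-05, edgeR), and Pde3b, the cGMP-inhibited enzyme of fat and liver, from 71.0 ± 1.54 to 54.1 ± 0.801 CPM (adjusted p = 0.000133, edgeR). The remaining tested gene, Pde3a, stood at 1.56 ± 0.222 and 1.32 ± 0.187 CPM in knockout and control (adjusted p = 0.337, edgeR). Below the filter, Pde1a had 26 counts in the knockout libraries together and 1 in the control libraries, and Pde11a 15 and 0. Both passed as higher with no filter on low counts and by DESeq2, which raised the Pde genes called higher from 4 to 6. Pde2a, under 1 identifier, passed as lower in the same alternatives (adjusted p = 0.000214 by edgeR without the filter and 0.00827 by DESeq2). The summed level of this class, with the untested members Pde1a, Pde2a and Pde11a, went from 73.0 ± 1.42 TPM in the control to 41.3 ± 0.260 TPM in the knockout.

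The cAMP-specific enzymes were divided. Pde4b, the rolipram-sensitive enzyme prominent in immune and brain cells, had 33.5, 35.4 and 34.8 CPM in the control and 10.6, 8.63 and 7.90 CPM in the knockout (edgeR log2 fold change -1.93, SE 0.11, adjusted p = 2.19e-08). Pde7b went the other way, from 2.93, 3.53 and 3.82 CPM to 13, 14.1 and 14.8 CPM (edgeR log2 fold change 2.03, SE 0.13, adjusted p = 7.90e-08), and neither gene's groups overlapped. Pde4d rose from 7.07 ± 0.754 to 10.6 ± 0.435 CPM (adjusted p = 0.000999, edgeR). Pde7a, the most abundant of the class, stood at 88.1 ± 4.38 and 82.6 ± 5.22 CPM in knockout and control (adjusted p = 0.259, edgeR), and Pde4a at 1.26 ± 0.150 and 1.43 ± 0.274 CPM (adjusted p = 0.497, edgeR). The summed level of the class was nearly equal, 47.2 ± 2.04 TPM in the knockout and 47.4 ± 2.16 TPM in the control, whereas cGMP-specific enzymes summed to 80.4 ± 4.59 and 51.9 ± 2.09 TPM. The whole family summed to 214 ± 11.4 TPM in the knockout and 213 ± 3.88 TPM in the control, so its composition differed at about the same total, with Pde9a at 37.2% ± 0.390 and 24.4% ± 1.06 and Pde1b at 0.136% ± 0.0434 and 7.13% ± 0.0740.

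**Figure D3:**
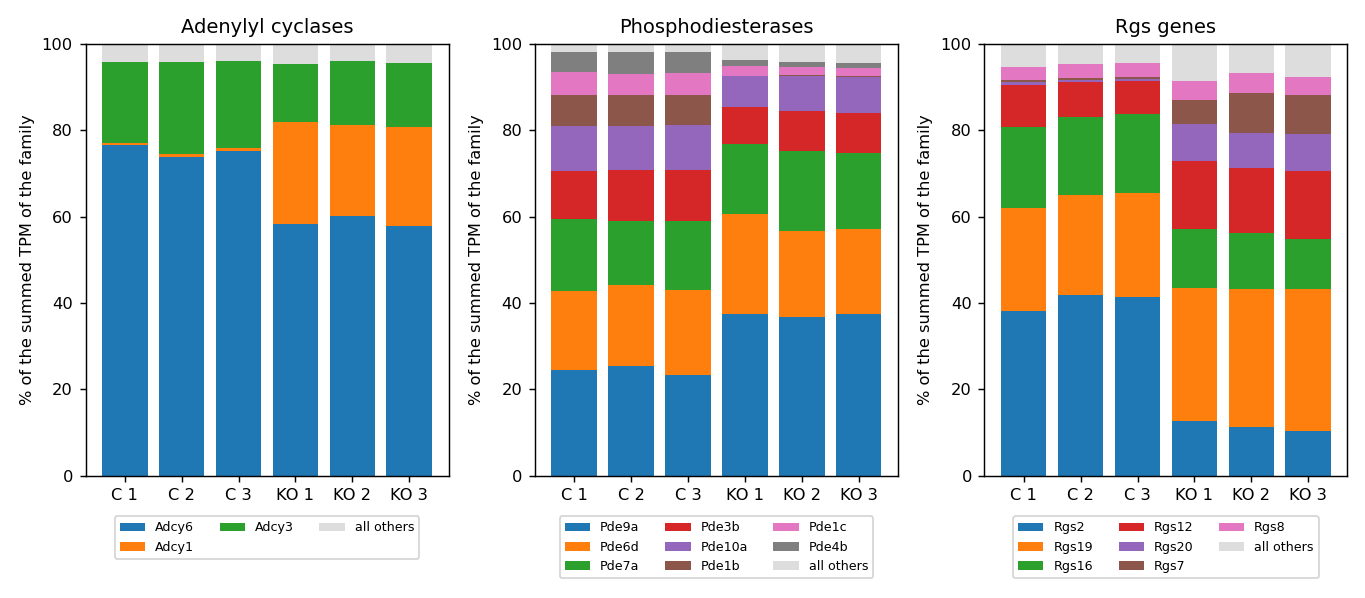
Share of each gene in the summed TPM of the adenylyl cyclase, phosphodiesterase and Rgs families, for each control (C) and knockout (KO) library; genes that reach a mean of 4% in a group are drawn separately and the rest are grey. Adcy1 takes 22.5% of the cyclase transcripts in the knockout, Pde9a 37.2% of the phosphodiesterase transcripts, and Rgs2 falls from 40.3% to 11.4% of the Rgs transcripts.

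Protein kinase A genes were abundant and all 6 were tested. The most abundant per length, Prkar1a (type I regulatory) and Prkaca (catalytic), had 181 ± 5.95 and 170 ± 10.1 TPM in the knockout and 158 ± 5.77 and 161 ± 8.52 TPM in the control, and neither passed (adjusted p = 0.0746 and 0.738, edgeR). Prkar2a, the type II regulatory subunit that A-kinase anchoring proteins bind, had 82.8, 79.9 and 90.0 CPM in the control and 131, 152 and 164 CPM in the knockout. It rose without overlap (edgeR log2 fold change 0.83, SE 0.09, adjusted p = 5.95e-06). Prkar1b, the mainly neuronal type I subunit, had 2.89, 2.53 and 2.58 CPM in the control and 0.332, 0.624 and 0.220 CPM in the knockout, a fall to a low level (edgeR log2 fold change -2.74, SE 0.29, adjusted p = 7.47e-06). The catalytic subunit gene Prkacb rose from 95.8 ± 1.95 to 150.1 ± 4.03 CPM (edgeR log2 fold change 0.65, SE 0.06, adjusted p = 2.06e-06) and Prkar2b from 23.5 ± 1.09 to 32.4 ± 2.78 CPM (edgeR log2 fold change 0.46, SE 0.08, adjusted p = 0.000476). The regions of these 2 were also shifted upward. The median log2 fold change over a window of 51 tested genes, the gene itself included, was 0.51 for Prkacb and 0.30 for Prkar2b. With that local median removed, both calls were lost (log2 fold changes of 0.14 and 0.16, adjusted p = 0.0627 and 0.118, edgeR), while Prkaca, amid genes with a median of -0.40, passed as higher at 0.43 (adjusted p = 0.000393, edgeR). Regulatory transcripts summed to 287 ± 13.7 TPM in the knockout and 222 ± 5.23 TPM in the control, and catalytic transcripts to 226 ± 8.12 and 195 ± 9.31 TPM.

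The Rgs genes were described by subfamily. In the R4 subfamily, small proteins that act on Gi and Gq, 0 of 4 tested genes were higher and 2 lower. Of all genes tested, 32.0% were higher and 30.3% lower. Rgs2, a regulator with a preference for Gq that also restrains adenylyl cyclases (ENSMUSG00000026360.9, chromosome 1 from 143999338 to 144004161, minus strand), had 102, 121 and 121 CPM in the control and 27.8, 23.8 and 21.3 CPM in the knockout. The drop was 4.71-fold, without overlap (edgeR log2 fold change -2.24, SE 0.10, adjusted p = 4.35e-09). Rgs2 was per length the most abundant Rgs transcript in the control, at 40.3% ± 2.02 of the family, and held 11.4% ± 1.14 in the knockout. Rgs16 had 32.2, 34.0 and 34.3 CPM in the control and 19.5, 17.7 and 15.6 CPM in the knockout, again without overlap (edgeR log2 fold change -0.93, SE 0.09, adjusted p = 3.33e-06). Rgs8, its neighbour on chromosome 1 (153653025 to 153700323, with Rgs16 from 153740349 to 153745468), stood at 25 ± 1.88 and 24.8 ± 2.27 CPM in knockout and control (adjusted p = 0.912, edgeR), so the adjacent genes differed in their calls, although the difference between their changes was not tested. Rgs3 stood at 21.4 ± 1.75 and 24.5 ± 1.96 CPM and did not pass (adjusted p = 0.0767, edgeR), but passed as lower without knockout replicate 1, with a replicate block and with a gene length offset (adjusted p = 0.0170, 0.0438 and 0.00351, edgeR), and had a log2 fold change of 0.17 with the local median removed, against -0.20. The other R4 genes were nearly silent: Rgs1, Rgs13 and Rgs18 had 0 counts in all libraries, Rgs21 had 1, Rgs4 had 6 and the pericyte marker Rgs5 had 5. A count of 0 allows up to 3 counts, or 0.102 CPM, in the shallowest library, for counting error only.

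In the R7 subfamily, whose proteins need the G beta 5 subunit for stability and act on Gi and Go, Rgs7 was higher (ENSMUSG00000026527.13, chromosome 1 from 175059087 to 175492500, minus strand). It had 1.78, 1.51 and 1.27 CPM in the control and 20.7, 32.8 and 30.9 CPM in the knockout, with knockout replicate 1 the lowest of its group. The ratio was 18.5-fold (edgeR log2 fold change 4.20, SE 0.20, adjusted p = 6.08e-09). Gnb5, its G beta partner, rose from 18 ± 0.890 to 26.3 ± 1.67 CPM (adjusted p = 0.000156, edgeR), while the membrane anchor Rgs7bp had 8 counts over all libraries. Rgs9, the photoreceptor and striatal member, stood at 2.90 ± 0.592 and 2.48 ± 0.297 CPM in knockout and control (adjusted p = 0.33, edgeR). Rgs11 fell from 0.469 ± 0.0506 to 0.180 ± 0.0696 CPM (adjusted p = 0.00725, edgeR), a call that DESeq2 did not make (adjusted p = 0.0532), and Rgs6 had 2 counts.

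All 3 genes of the R12 subfamily, which act on Gi, were higher, beside 32.0% of all genes tested. Rgs12 was not higher with the local median of its region removed. Rgs14, a scaffold for Ras and Gi, rose from 0.681 ± 0.159 to 1.61 ± 0.0893 CPM (edgeR log2 fold change 1.23, SE 0.23, adjusted p = 0.000649). Rgs10, a small member known from microglia and neurons, went from 0.954, 1.30 and 0.998 CPM to 3.05, 1.82 and 2.01 CPM (edgeR log2 fold change 1.07, SE 0.25, adjusted p = 0.00275), with knockout replicate 1 the highest. Rgs12, a multidomain scaffold and the most abundant of the 3, went from 54.6 ± 3.79 to 75.3 ± 3.53 CPM (edgeR log2 fold change 0.46, SE 0.07, adjusted p = 0.000142). Its 51-gene neighbourhood had a median log2 fold change of 0.56, and with that removed the value was -0.10 and did not pass (adjusted p = 0.255, edgeR). In the RZ subfamily, specific for Gi and Gz, Rgs20 rose from 2.26, 2.17 and 1.65 CPM to 21.8, 19.8 and 20.9 CPM, a 10.3-fold ratio in libraries that agreed closely (edgeR log2 fold change 3.35, SE 0.13, adjusted p = 1.08e-09). Rgs19, per length the most abundant Rgs transcript in the knockout, stood at 41.8 ± 0.206 and 41.6 ± 2.13 CPM in knockout and control (edgeR log2 fold change 0.01, SE 0.07, adjusted p = 0.938). Rgs17 had 15 counts in knockout libraries and 1 in the control, and Rgs22 had 4 in all. R4 transcripts summed to 160.2 ± 10.6 TPM in the control and 61.5 ± 5.43 TPM in the knockout, against 60.4 ± 2.76 and 77.5 ± 0.624 TPM for RZ, 23.7 ± 1.6 and 36.3 ± 1.98 TPM for R12 and 2.38 ± 0.263 and 17 ± 3.51 TPM for R7.

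The 27 members below the filter had at most 41 counts over the 6 libraries, and 5 had 0 in every library. Without the filter, Gucy1a3, Prkg2, Rgs17, Pde1a and Pde11a passed as higher, and Gucy1a2 and 1 Pde2a model as lower. Pde2a, which hydrolyses both messengers and is stimulated by cGMP, had 7 and 34 counts under 1 identifier and 1 and 1 under the other. Since these 2 models overlap each other, and 1 of them overlaps Arap1 on the same strand, their counts are uncertain. Pde8a had 6 and 11 counts, Pde8b 5 and 3, and Pde4c 0 and 3.

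Other genes of these pathways were taken from 7 lists of 184 genes, of which 120 were tested, 47 higher and 38 lower. These 85 calls were 70.8% of the genes tested, near the 62.3% of all genes (32.0% higher and 30.3% lower), and the single lists ranged from 64.7% to 81.0%. Of 21 tested G protein subunits, 12 were higher and 2 lower, and the median of their log2 fold changes was 0.27 beside 0.01 over all genes tested. Gnai1, an adenylyl cyclase-inhibiting alpha subunit, rose from 0.345 ± 0.146 to 21.2 ± 1.08 CPM (adjusted p = 2.16e-10, edgeR), and Gnas, the stimulatory alpha subunit, from 1089 ± 40.1 to 1491 ± 93.6 CPM (adjusted p = 0.000389, edgeR). The subunit genes Gnb4, Gng8 and Gng12 rose from 1.19 ± 0.172, 12.8 ± 1.66 and 119 ± 4.56 CPM to 17.5 ± 5.67, 59.5 ± 9.77 and 279 ± 35.4 CPM. Of 47 receptors, 21 were tested, 12 higher and 5 lower (median 0.62). Several of the higher ones passed the filter only through the knockout, among them Lpar4, Grm3 and Adgrg6 with 7, 2 and 8 control counts. The filter thus raised this median and count. Adcyap1r1, the Gs-coupled receptor for the neuropeptide PACAP, rose from 0.241 ± 0.0975 to 43.5 ± 16.4 CPM, with knockout libraries at 62.4, 33.9 and 34.2 CPM. The lysophosphatidic acid receptor gene Lpar4 rose from 0.0751 ± 0.0381 to 5.38 ± 0.863 CPM, and the Gi-coupled glutamate receptor gene Grm3 from 2 counts over the control libraries to 5.14 ± 0.589 CPM. The adhesion receptor gene Adgrg6 rose from 0.0832 ± 0.0912 to 2.21 ± 0.0200 CPM. Npr1 and Npr2, the natriuretic peptide receptors that are themselves guanylyl cyclases, were lower. Npr2 fell from 4.71 ± 1.19 to 2.44 ± 0.537 CPM (adjusted p = 0.00249, edgeR). Npr1 went from 7.67 ± 0.551 to 6.13 ± 0.724 CPM, near the threshold (adjusted p = 0.0481, edgeR). Npr3 had 2 counts over all libraries and was not tested.

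Downstream lists were mixed. Of 17 tested A-kinase anchoring proteins and kinase inhibitors, 5 were higher and 6 lower (median log2 fold change -0.13). Akap12, a scaffold for protein kinases A and C, fell from 21.9 ± 2.17 to 2.04 ± 0.556 CPM, whereas Akap7 and Akap5 rose from 3.05 ± 0.166 and 1.85 ± 0.410 to 13.6 ± 0.411 and 6.30 ± 2.72 CPM. Pkia, the heat-stable inhibitor of the kinase A catalytic subunit, rose from 2.92 ± 0.731 to 21.8 ± 1.64 CPM. Of 12 tested genes for other effectors and transport, 3 were higher and 6 lower (median -0.19). The cAMP exporter gene Abcc4 fell from 330.1 ± 20.4 to 136 ± 32.3 CPM, with 99.3, 147 and 161 CPM in the knockout, the cAMP-activated exchange factor gene Rapgef3 (Epac1) from 81.8 ± 15.4 to 45.6 ± 5.74 CPM and the channel gene Cngb1 from 1.90 ± 0.0678 to 0.225 ± 0.0749 CPM. The kinase gene Prkx rose from 7.35 ± 0.375 to 12.6 ± 0.531 CPM. All of these passed (adjusted p at most 0.000229, edgeR).

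Of 23 tested CREB factors, coactivators and cAMP-response genes, 5 were higher and 12 lower (median -0.23). Creb1, the main cAMP-responsive factor, stood at 91.1 ± 9.28 and 104 ± 4.30 CPM in knockout and control (adjusted p = 0.0577, edgeR), and its target Nr4a1 at 31.7 ± 4.24 and 37.0 ± 2.78 CPM (adjusted p = 0.0646, edgeR). Creb3l1, a membrane-bound factor of the secretory pathway that is released by cleavage, fell from 35.4 ± 3.08 to 2.04 ± 0.0372 CPM, and the immediate early gene Junb fell from 30.8 ± 2.34 to 5.88 ± 0.229 CPM. The coactivator gene Ppargc1a rose from 3.77 ± 0.257 to 66.2 ± 3.77 CPM, and the neurotrophin gene Bdnf from 0.0952 ± 0.0838 to 7.44 ± 2.01 CPM. Among 23 tested Rgs partners and other regulators, 8 were higher and 7 lower (median 0.13). The receptor kinase genes Grk3 and Grk6 fell from 1.80 ± 0.213 and 183 ± 10.4 to 0.370 ± 0.126 and 98.9 ± 5.91 CPM, and the phospholipase gene Plcb1, an effector of Gq, rose from 8.34 ± 0.445 to 18.8 ± 1.40 CPM. Snx14 rose from 21.3 ± 0.641 to 32.5 ± 1.18 CPM, but not with its local median removed (adjusted p = 0.0931, edgeR).

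**Figure D4:**
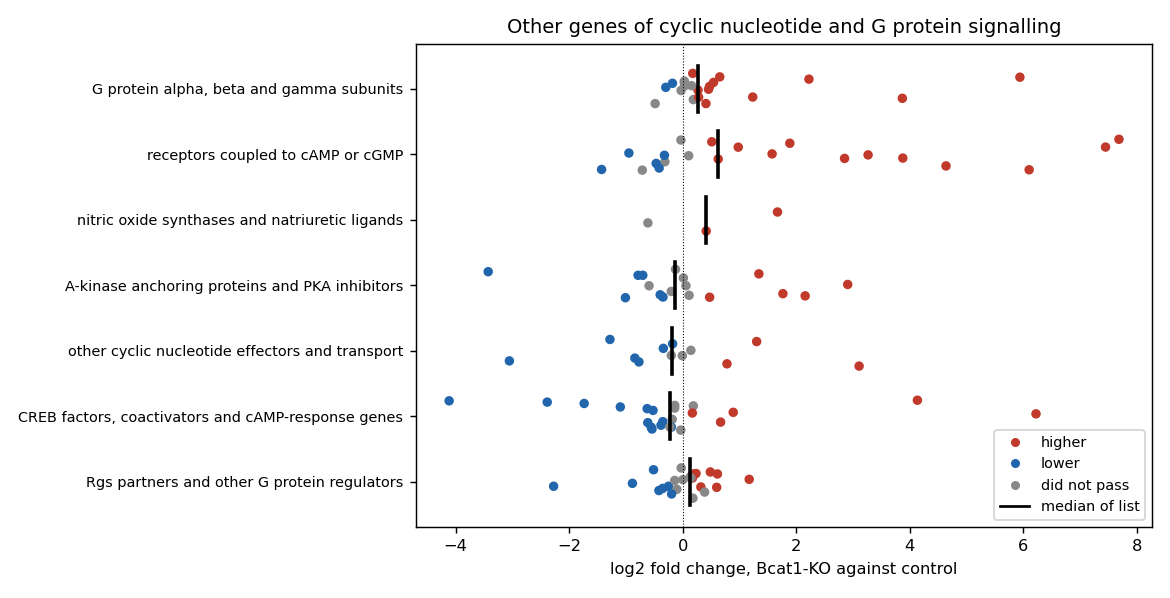
Log2 fold change of the tested genes of the 7 lists, with red for higher, blue for lower and grey for genes that did not pass; vertical placement within a list carries no meaning and the black line is the list's median. Medians run from -0.23 for CREB and cAMP-response genes to 0.62 for receptors.

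Prkg1, Gucy1b3, Pde5a and Rgs5 are genes of smooth muscle and pericytes in other tissues, so the levels of a list of 10 markers of those cells are given beside them. Of its 8 tested genes 3 were higher and 4 lower, beside 32.0% and 30.3% of all genes tested. The summed level was 132 to 176 CPM in knockout libraries and 43.7 to 46.8 CPM in the control. The sum was made up mostly of Notch3 and Cspg4, which glial progenitors also express, at 92.7 ± 11.8 and 55.6 ± 9.85 CPM in knockout libraries and 23.0 ± 0.661 and 9.63 ± 0.680 CPM in the control. The 4 lower genes were Tagln, Pdgfrb, Acta2 and Myh11. Tagln fell from 0.808 ± 0.0744 to 0.144 ± 0.0362 CPM, and control levels of 4.54 ± 0.0349 CPM for Pdgfrb, 2.88 ± 0.314 for Acta2 and 2.06 ± 0.320 for Myh11 stood against knockout levels of 0.224 ± 0.0872, 0.0714 ± 0.0393 and 0.261 ± 0.0613. The third higher gene, the muscle filament gene Des, rose from 0.349 ± 0.0939 to 1.17 ± 0.667 CPM (adjusted p = 0.00414, edgeR), and Anpep stood at 1.66 ± 0.571 and 2.01 ± 0.174 CPM in knockout and control (adjusted p = 0.326, edgeR). Kcnj8 and Abcc9 had 1 and 7 counts over all libraries. Neuronal markers, set beside Adcy1 and Rgs7, were higher for 3 of 5 tested genes and lower for 1, again beside 32.0% and 30.3%. The list summed to 409 to 454 CPM in knockout libraries and 215 to 232 CPM in the control, mostly from Map2. Rbfox3, a marker of mature neurons, fell from 33.1 ± 0.667 to 0.0719 ± 0.0415 CPM. Below the filter, Snap25 had 14 counts in knockout libraries and 3 in the control, Gad2 4 and 0, and Slc17a7 13 and 34. The part of either marker list in these results was not tested, and in such bulk samples a change in the share of cells and a change in RNA per cell cannot be told apart.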

How the data were processed

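The 3 Bcat1-KO and 3 control samples were prepared as stranded mRNA libraries, per the labels' protocols. The submitters' processing notes name STAR 2.5.3a, featureCounts and mm10, without an annotation release. The deposited counts are raw reads per gene, and those on the reverse strand (96.4% to 96.5% of stranded reads) were used. The authors' TPM values, which have the same sum in every library, served to compare levels between genes. They use the single exonic length listed for each gene, so rankings and shares per length depend on that length.

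Counts were filtered with edgeR 4.0.16 (14020 of 49585 genes kept, 0.0511% of counts removed), scaled by TMM and compared by the quasi-likelihood test without covariates, adjusted by the Benjamini-Hochberg method at 0.05. A gene could pass the filter through a single group, and the direction of such a gene was then largely fixed by the filter. CPM are TMM-scaled, and folds are ratios of mean CPM. Simulated counts with known changes served to test the fit. Alternatives included 2 other scalings, no filter, DESeq2 1.42.0, limma 3.58.1, unstranded counts, a replicate block, a gene length offset, the local median of 51 genes removed, a 1.5-fold threshold, and leaving out each library. Analyses used R 4.3.3 and Python 3.11.15.

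The members, lists and tests were chosen with earlier results of these data known. Named were all members past the threshold with a 2-fold change and 1 CPM in a group, the 2 highest by TPM in each of 6 families, and up to 4 genes past the threshold from each of 7 lists, those with the largest change at a mean log2 CPM of at least 0. Other members and other list or marker genes were named after their values were seen.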

Additional observations from a re-analysis of the deposited data

How the results depend on the processing

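Of the 28 members with a call, 19 kept call and direction in all 18 alternatives. Against a 1.5-fold threshold 8 lost the call, leaving 12 higher and 8 lower, beside 1564 and 1481 of all 14020 genes tested. In another alternative 5 lost it (Adcy3, Prkacb, Prkar2b, Rgs11 and Rgs12). Rgs12 reversed to a log2 fold change of -0.10 with the local median removed. The threshold also left 24 pathway genes higher and 14 lower, and ended the call of Bcat1 (log2 fold change -0.41, adjusted p = 1, edgeR), since it asks for a larger change. Of the tested members without a call, 4 gained one in some alternative (Adcy9, Prkaca, Prkar1a and Rgs3). Members below the filter also gained a call in some alternative: Gucy1a2, Gucy1a3, Pde1a, Pde11a, a Pde2a model, Prkg2 and Rgs17. With 1 library left out, 17 to 18 members were higher and 10 to 14 lower, 42 to 46 pathway genes higher and 32 to 40 lower, and the Bcat1 log2 fold change ran from -0.45 to -0.37. With no filter on low counts, 22 members were higher and 12 lower, beside 4689 and 4740 of the 24503 genes then tested. On log2(TPM + 1) the changes of low genes were smaller, as the added 1 makes them, for instance 3.92 for Prkg1 and 0.73 for Pde5a. Shares within a family were equal when taken from scaled counts per kilobase. That had to be so, since both measures divide the same counts by the same gene length, and it is no separate check.

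Deviations from the group means correlated at -0.0495, -0.0635 and 0.136 for replicate numbers 1, 2 and 3, and only the libraries numbered 3 correlated best with each other. With 3 libraries per group, these values cannot decide whether samples of the same number shared a culture or preparation. With a replicate block 17 members were higher and 12 lower, and 48 pathway genes higher and 37 lower, and the Bcat1 log2 fold change was -0.41. With the block and the length offset the counts were 17 and 12, and 43 and 43. Genes under about 3 counts in a library lie at the limit of these depths.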
